A study of Mus musculus with 15 samples.

Results

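Explants treated with JTE013 and CTGF together (JTE + CTGF) were compared with control explants, to ask which features of the control explants were still lower or higher when CTGF was supplied during the JTE013 treatment. The comparison comprised the 3 libraries titled as JTE with CTGF and the 3 titled as control, chosen by title alone, of the 15 libraries of the series. All 6 came from C57/Bl6J wild-type dorsal pancreatic buds taken at 14.5 dpc and kept for 2 days on filters at the air-liquid interface (ALI) in DMEM with N2 supplement. JTE + CTGF explants received 15 μM JTE013 and 50 ng/ml CTGF, and controls received the solvent where appropriate. The other treated group, of 3 libraries, received 15 μM JTE013 alone (JTE) and is given beside the comparison. Its contrast with control rests on the same control libraries, so the values stand side by side and their likeness was not measured. No library with CTGF but without JTE013 was analysed here. Each library pooled up to 3 explants of the same treatment, and the p-values measure the spread between such pools.

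JTE013 is an antagonist of S1pr2, a G protein-coupled receptor for the lipid sphingosine-1-phosphate (S1p). CTGF, the product of Ccn2, is a secreted matricellular protein, and its gene is a well-known target of the transcriptional coactivator YAP and its TEAD partners. In the pancreas at this stage, bipotent trunk progenitors give rise to duct cells and, through Neurog3, to hormone-producing endocrine cells, while tip cells become acinar cells that make digestive enzymes. A bulk library adds up all of these and the mesenchyme, vessels and macrophages around them, so fewer cells of a type and less RNA per cell cannot be told apart.

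Total counts were 11402804 to 11658845 in JTE + CTGF and 12144568 to 13020514 in control, of a range of 11402804 to 13828737 over the series. Of 16245 genes tested, 4565 (28.1%) were higher and 5361 (33%) lower in JTE + CTGF at an edgeR adjusted p below 0.05, which is what "called" means here. Genes are called regulated where they meet the study's own criterion, with an adjusted p up to 0.1, a fold outside 0.6 to 1.6 and more than 100 normalised counts on average in at least 1 group. It was met by 713 (6.29%) higher and 1200 (10.6%) lower genes of the 11343 protein-coding genes with such a mean. The median log2 fold change over all genes tested was −0.03, and the biological coefficient of variation was 7.3%. Normalised counts are reads scaled to the mean effective library size, and positions are the span of a gene's exons in mm10. Counts of called genes in a list have to be read against the 28.1% and 33% of all genes. The JTE + CTGF libraries lay above control without overlap in 30.4% of genes tested and below it without overlap in 34.4%. A lack of overlap between these groups for a gene has to be read against these shares. The markers fitted the labelled tissue, with acinar enzymes, islet hormones, epithelial, mesenchymal and endothelial genes present in all 6 libraries. The share of reads on Y-linked genes was 0.0246% to 0.0287% in JTE + CTGF and 0.0102% to 0.0172% in control. This share thus moved with the treatment, and the sex mix of the pools was not examined further. Values of a fit with this share as a covariate are given for some genes and lists.

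Gene length also moved with the groups. The median log2 fold change against control was 0.08 in the shortest of 5 equal bins of genes by exonic length and −0.21 in the longest bin, and against JTE it was 0.15 and −0.24. In the 3 JTE + CTGF libraries the longest bin lay at −0.13, −0.20 and −0.26. For JTE against control the medians ran the other way, from −0.04 to 0.06. The part of length in the results on long genes was not tested beyond a fit with the length trend removed, whose values are given beside some of the results. That fit covered the comparison with control and not the contrast with JTE.

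**Figure D1:**
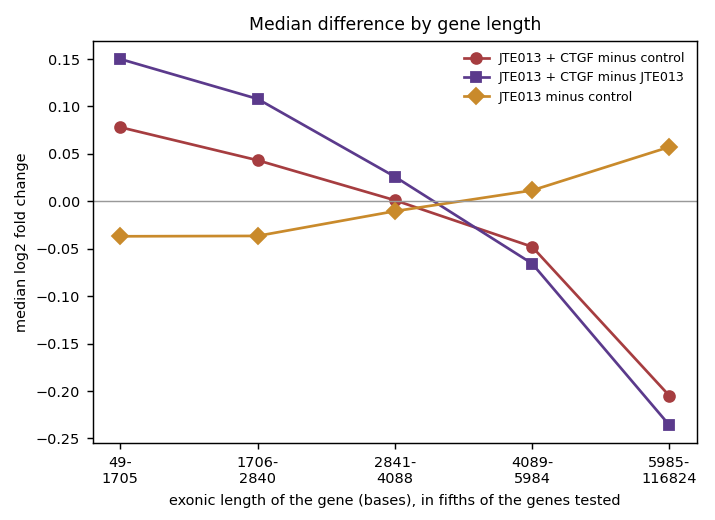
Median log2 fold change (vertical axis) in 5 equal bins of the 16245 genes tested by exonic length in bases (horizontal axis), for 3 contrasts. JTE + CTGF minus control falls from 0.08 to −0.21 and JTE + CTGF minus JTE from 0.15 to −0.24, while JTE minus control rises from −0.04 to 0.06.

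The receptor that JTE013 antagonises was not lost. S1pr2 (chr9:20965952-20976793) had normalised counts of 1085, 933 and 938 in JTE + CTGF and of 810, 796 and 848 in control. The groups did not overlap, and the increase was slight at a log2 fold change of 0.27 ± 0.07 (SE; adjusted p = 0.0038). Of 8 S1p and LPA receptor genes tested, S1pr2 was the only one called higher and 3 were called lower. S1pr3, another S1p receptor, fell to 290, 372 and 294 from 490, 569 and 620 (log2 fold change −0.81 ± 0.11, adjusted p = 6.8e-06). S1pr1, the S1p receptor best known from vessels, fell by 0.37 on the log2 scale, and the LPA receptor Lpar2 fell by 0.25. Lpar1 differed by −0.16 (adjusted p = 0.39).

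The endogenous transcript for CTGF stayed low while the protein was supplied. Ccn2 (chr10:24595442-24598683) was at 41.2, 65.3 and 72.2 in JTE + CTGF against 328, 278 and 249 in control. All 3 treated libraries lay far below every control library, at 20.9% of the control mean (log2 fold change −2.26 ± 0.23, adjusted p = 3.2e-07). In JTE it was at 27.5% of control, and the difference that went with CTGF was −0.38 with a 95% interval of −0.94 to 0.18. An annotated transcript on the opposite strand covers 23.2% of the Ccn2 exons, and the sources used here do not state whether counting used the strand. In the same CCN family, Ccn3 fell from 1115, 1100 and 999.7 to 64.0, 90.5 and 87.7 (−3.73 ± 0.14, adjusted p = 5.9e-12). Ccn1 (Cyr61) fell by 0.49 on the log2 scale, with groups that overlapped, and Ccn4 did not pass the test (0.42, adjusted p = 0.13).

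Yap1 itself did not pass the test, with 2342, 2173 and 2254 in JTE + CTGF and 2324, 2229 and 2390 in control (−0.04 ± 0.06, adjusted p = 0.59). In the fit without the length trend Yap1 was higher, by 0.18 (adjusted p = 0.0093). Of 21 genes known as YAP targets in other tissues, 15 were called lower and 3 higher, with a median of −0.49 (JTE −0.19). Ankrd1, a sarcomere and nuclear ankyrin protein used as a YAP reporter gene, fell from 118, 114 and 86.4 to 8.0, 11.4 and 16.6 (−3.13 ± 0.41, adjusted p = 4.4e-06). Amotl2, a YAP-binding scaffold that YAP also induces, fell by 0.81. Myof (−0.94), Arhgef17 (−0.68) and Ptpn14 (−0.58), which act in membrane repair, small GTPase activation and YAP retention, also fell. These 3 were lower than in JTE too, by 0.61, 0.44 and 0.52 on the log2 scale. Their exons span 7109, 10250 and 11573 bases, in the longest bin of genes, whose median against JTE was −0.24. The exceptions were Dock5 (0.99), F3, which encodes tissue factor (0.98), and the stress gene Gadd45a (0.93), which were higher than in control. Among the YAP and TEAD genes themselves Tead1 fell from 723, 790 and 738 to 417, 402 and 301 (−1.01 ± 0.10, adjusted p = 1.4e-07). In JTE it stood at 852, 891 and 1028, so all 3 treated libraries lay below both other groups. Its exons span 11235 bases, in the longest bin of genes. Without the length trend the median of the YAP targets was −0.30, with 13 lower and 3 higher.

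The largest losses of hormone transcripts were those of insulin. Ins1 (chr19:52264323-52265456) fell from 18530, 16500 and 17260 in control to 996, 1794 and 2002 in JTE + CTGF. No treated library came near a control library, and JTE + CTGF held 9.16% of the control mean (−3.45 ± 0.25, adjusted p = 7.8e-09). In JTE, Ins1 was at 792, 807 and 506, which was 4.03% of control. All 3 JTE + CTGF libraries thus lay above all 3 JTE libraries, by 1.19 on the log2 scale (95% interval 0.66 to 1.72, adjusted p = 0.0018). Ins2 (chr7:142678656-142699510) fell from 26230, 25300 and 23350 to 1693, 3202 and 3392, or 11.1% of control (−3.18 ± 0.27, adjusted p = 3.3e-08). Against the 2056, 2275 and 1447 of JTE it differed by 0.52 (95% interval −0.01 to 1.05, adjusted p = 0.13), and the groups overlapped. Both genes encode preproinsulin. The stretch of the Ins1 promoter just before its start is shown because it holds CATCTG, an E-box of the kind that basic helix-loop-helix factors such as Neurod1 can bind, here in capitals 79 bases upstream of the start. It is from RefSeq for GRCm38.p6, 5′ to 3′ on the gene's strand.

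Ins1 (chr19:52264047-52264296, plus strand): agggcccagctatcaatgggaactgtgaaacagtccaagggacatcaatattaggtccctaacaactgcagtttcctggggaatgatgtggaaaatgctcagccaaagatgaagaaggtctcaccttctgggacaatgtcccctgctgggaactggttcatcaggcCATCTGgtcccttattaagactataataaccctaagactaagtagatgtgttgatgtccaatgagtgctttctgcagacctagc

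CATCTG on either strand was found in the 250 bases before the start of 5 of 15 beta cell genes with a window (33.3%), against 16.3% of 27025 genes and 12.1% of 11656 genes tested. Lists unrelated to beta cells held it as often or more, such as 5 of 10 macrophage genes (50%) and 3 of 9 endothelial genes (33.3%). The match describes these letters and is no evidence of binding.

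Of 22 genes of beta cells, 17 were called lower and 1 higher, with a median of −1.10 (JTE −0.79). Their summed level was 1607 to 1954 CPM, counts scaled to library size, in JTE + CTGF and 5412 to 5689 in control, with no overlap. In JTE it was 1500 to 1730, and in uncultured wild-type pancreata 1210 to 1533. The losses reached beyond insulin. Mafa, a transcription factor of mature beta cells, fell by 1.83, the zinc transporter Slc30a8 by 1.67 and the glucose transporter Slc2a2 by 1.12 on the log2 scale. Nnat, a membrane proteolipid abundant in beta cells, fell from 3436, 3590 and 3779 to 827, 1053 and 988 (−1.91 ± 0.07, adjusted p = 5e-12). Sytl4, which docks insulin granules, fell by 1.54. Iapp, the peptide released with insulin, fell much less, by 0.53, to 6207, 6504 and 8134 from 11240, 9978 and 8971. Pdx1, which is required for the pancreas and for insulin transcription, fell from 1589, 1485 and 1458 to 694, 695 and 751 (−1.08 ± 0.08, adjusted p = 1.4e-08). It was also lower than in JTE, by 0.42 (adjusted p = 0.0014), so that Ins1 was higher and Pdx1 lower with CTGF added. Nkx6-1, a transcription factor of beta cells and trunk progenitors, did not pass the test (0.12, adjusted p = 0.14), nor did the potassium channel subunits Abcc8 (0.18, called without control replicate 2) and Kcnj11 (0.03). The 1 higher gene was Ucn3, a marker of mature beta cells that was near the detection limit in control at 6.37, 4.02 and 4.17 and stood at 24.0, 20.6 and 30.8 in JTE + CTGF.

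**Figure D2:**
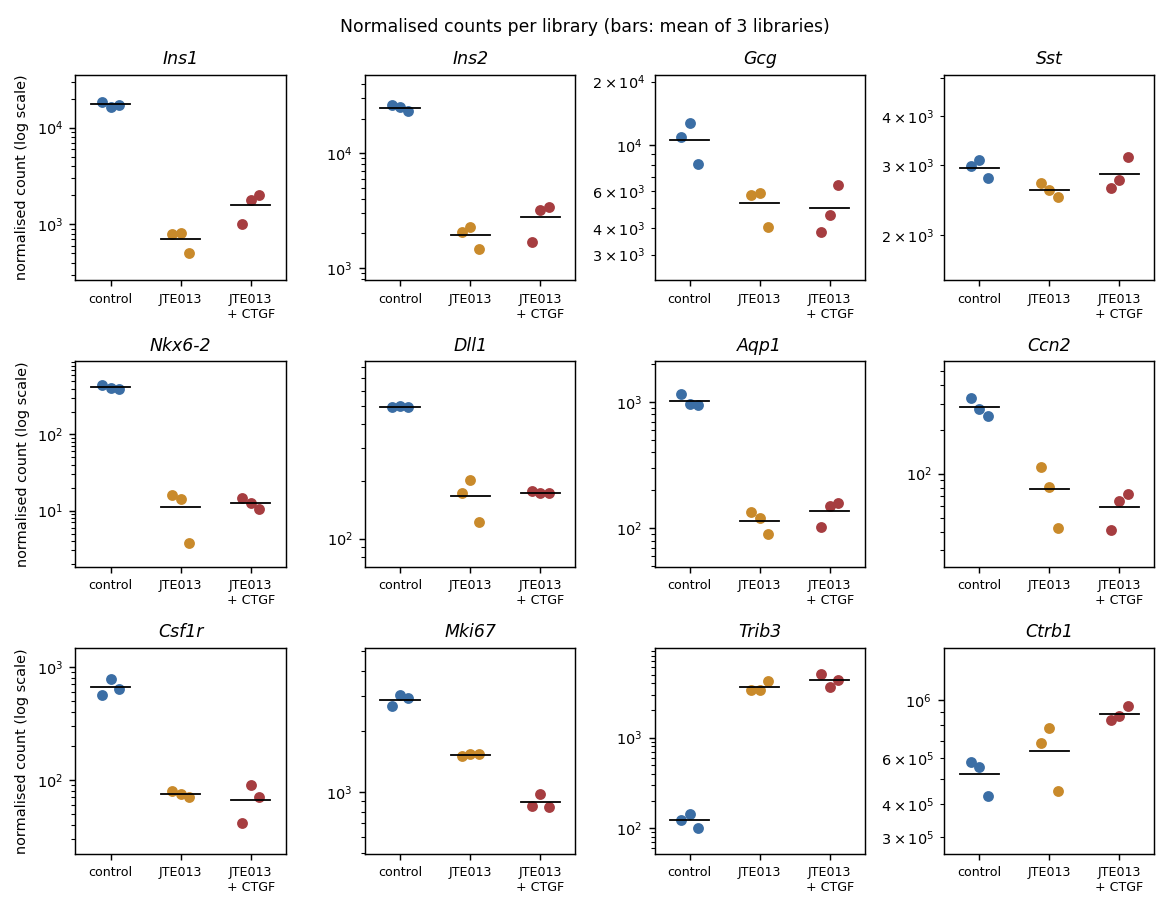
Normalised counts (vertical axes, log scale) of 12 genes in the 3 libraries of each group (horizontal axes), with points for libraries and bars for means. Ins1, Ins2, Gcg, Nkx6-2, Dll1, Aqp1, Ccn2, Csf1r and Mki67 lie lower in all 3 JTE + CTGF libraries than in all 3 control libraries, Trib3 and Ctrb1 lie higher, and Sst overlaps.

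The other islet hormones were unevenly affected. Glucagon (Gcg) fell from 10870, 12720 and 8113 to 3863, 4643 and 6461, which was 47.2% of control (−1.08 ± 0.18, adjusted p = 5.7e-05). Pancreatic polypeptide (Ppy) fell from 356, 333 and 362 to 74.3, 113 and 87.7, or 26.2% of control (−1.93 ± 0.18, adjusted p = 1e-07). Ghrelin (Ghrl) fell by 0.52 and peptide YY (Pyy) by 0.80 on the log2 scale. Somatostatin (Sst), the delta cell hormone, was at 2635, 2760 and 3148 against 2982, 3105 and 2783, and did not pass the test (−0.05 ± 0.12, adjusted p = 0.71). Of 12 genes of the non-beta islet cells 8 were called lower and 2 higher, with a median of −0.78 (JTE −0.45). The 2 higher genes were Irx1, an alpha cell transcription factor (0.50), and Hhex, a delta cell transcription factor (0.22), whose call was lost without control replicate 2 or without JTE + CTGF replicate 3. None of Gcg, Ppy, Pyy, Ghrl and Sst passed the test against JTE, with 95% intervals of −0.45 to 0.30 for Gcg and of −0.47 to 0.36 for Ppy.

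Genes of endocrine commitment were lower in the main, but by less than the insulins. Of 16 such genes, 11 were called lower and 2 higher, with a median of −0.56 (JTE −0.36). Neurog3, the factor that starts the endocrine programme, was at 222, 322 and 439 against 504, 451 and 362. The groups overlapped and the difference did not pass the test (−0.43 ± 0.21, adjusted p = 0.091). It passed without JTE + CTGF replicate 3 (−0.69, adjusted p = 0.013), without control replicate 3 (−0.55, adjusted p = 0.047) and without the length trend (−0.52, adjusted p = 0.032). Its target Neurod1 fell by 0.43 ± 0.10 (adjusted p = 0.00085). Sox4, which acts with Neurog3, fell from 8765, 8100 and 8494 to 3750, 4205 and 3783 (−1.11 ± 0.06, adjusted p = 1.6e-10), with 54.6% of its exons under an annotated transcript of the other strand. Pax4, a factor of beta and delta cell precursors, fell by 1.53, and the peptide gene Cck fell by 2.19. St18, a zinc finger gene, fell by 1.16 and Hes6 by 0.73. The 2 higher genes, Fev (0.37) and Insm1 (0.25), lost their calls without control replicate 3, and Fev also without JTE + CTGF replicate 3. Of 16 secretory granule genes 11 were lower and 2 higher, with a median of −0.47 (JTE −0.64). Scg2, a granin, fell from 3619, 3732 and 3203 to 1452, 1521 and 1790 (−1.15 ± 0.10), and was above its 994, 1170 and 1121 in JTE by 0.53 (adjusted p = 0.00087). The prohormone convertase Pcsk1 fell by 0.93, Cadps, which primes granules, by 0.94 and the peptide amidase Pam by 0.74. Vgf (1.35) and Ptprn (0.51), a secreted peptide precursor and a granule membrane protein, were higher.

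Of 16 progenitor genes 9 were called lower and 1, the tip marker Cpa1, higher (median −0.65, JTE −0.15). Nkx6-2, a homeobox gene of the trunk epithelium, fell from 448, 407 and 392 to 14.9, 12.6 and 10.7, and stood at 15.9, 14.3 and 3.72 in JTE. The treated groups thus overlapped each other and lay far below control, at 3.06% of its mean (−5.01 ± 0.27, adjusted p = 1.8e-10). Dll1, the Notch ligand of endocrine precursors, fell from 490, 499 and 493 to 177, 173 and 173 (−1.50 ± 0.12, adjusted p = 1.7e-08). The libraries within each group were almost equal. Sox9, which maintains trunk progenitors and ducts, fell from 2457, 2329 and 2274 to 1117, 1348 and 1263 (−0.92 ± 0.09, adjusted p = 3.3e-07). Hes1, the Notch effector, stood at 1022, 1068 and 1130 in JTE + CTGF, at 801, 839 and 732 in JTE and at 993, 1023 and 957 in control. It did not pass the test against control (0.11, adjusted p = 0.11) and exceeded JTE in every library (0.44 ± 0.06, adjusted p = 5.1e-05). Onecut1 (chr9:74861921-74891475), which acts upstream of Neurog3 and in duct formation, behaved in the opposite way. It was at 348, 366 and 392 in control and 374, 401 and 343 in JTE, but at 128, 125 and 117 in JTE + CTGF (−1.58 ± 0.13 against control, −1.59 against JTE with a 95% interval of −1.86 to −1.32). An annotated transcript of the same strand overlaps 52.8% of its exons, so its reads may be shared. Of 23 Notch pathway genes 12 were lower and 4 higher (median −0.21, JTE −0.08). Notch2 fell by 0.65 and was lower than in JTE by 0.66, and its 10506 exonic bases place it in the longest bin. Without the length trend 9 Notch genes were lower and 5 higher. Mib2, an E3 ligase for Notch ligands, rose from 877, 888 and 956 to 1881, 1828 and 1745.

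Duct genes were mostly lower as well, with 14 of 19 called lower and 1 higher (median −0.59, JTE −0.56). The water channel Aqp1 fell from 1154, 967 and 952 to 102, 151 and 158 (−2.90 ± 0.13, adjusted p = 3.8e-11). The chloride channel Cftr fell from 103, 104 and 89.6 to 16.0, 13.7 and 17.8 (−2.63 ± 0.23, adjusted p = 6.1e-08). Krt19, the keratin that marks ducts, fell from 1977, 1927 and 1981 to 1142, 1171 and 1174 (−0.75 ± 0.06, adjusted p = 3e-08). For none of these did the level pass the test against JTE. Slc26a3, a chloride-bicarbonate exchanger, went the other way, from 1.06, 0 and 1.04 in control to 168, 135 and 172. Of 18 general epithelial genes 8 were lower and 4 higher (median −0.14, JTE −0.39). The keratin Krt8 fell by 1.00, the claudin Cldn6 by 1.03 and the ETS factor Ehf by 1.84 on the log2 scale. Epcam was at 4449, 4861 and 4913 against 6618, 5892 and 5787 (−0.36 ± 0.07), above JTE by 0.20 (adjusted p = 0.032). E-cadherin (Cdh1) did not pass the test (−0.11, adjusted p = 0.21). Rab25, a GTPase of epithelial recycling, rose by 0.75, and the 3 other higher genes, Cldn7, Spint1 and Ap1m2, were at 0.21 to 0.23 and lost their calls without control replicate 3, without JTE + CTGF replicate 3 and without the length trend.

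Acinar genes split. Of 26 secretory genes of acinar cells tested, 9 were called lower, 6 higher and 11 not called (median −0.18, JTE −0.39), so neither share of calls stood clear of the 33% and 28.1% of all genes. Their summed level was 110000 to 124800 CPM in JTE + CTGF and 66720 to 90280 CPM in control, with no overlap, and 58790 to 105900 CPM in JTE. That sum is led by a few genes. Ctrb1, a chymotrypsinogen, rose from 581000, 554800 and 430600 to 838100, 866200 and 946700 (0.76 ± 0.20, adjusted p = 0.0041) and made up 6.29% to 7.01% of all reads in JTE + CTGF and 3.40% to 4.40% in control. The carboxypeptidase Cpa1 rose by 0.63 and the trypsinogen Prss2 by 0.78. Try5 rose from 11930, 10690 and 8563 to 47920, 32760 and 48670 (2.05 ± 0.20, adjusted p = 1.4e-07), while Prss1 fell from 8199, 8352 and 3260 to 608, 603 and 798 (−3.30 ± 0.41, adjusted p = 2.5e-06). Both are trypsinogens, and 47.6% and 54.9% of their 50-base words occur at other loci, so reads may have moved between family members. The carboxypeptidase Cpb1, with no shared words, fell from 4739, 4419 and 1966 to 685, 666 and 984 (−2.25 ± 0.34, adjusted p = 2.3e-05). The lipase Cel, at 21570, 23650 and 28490 against 28800, 28940 and 18560, did not pass the test (−0.05, adjusted p = 0.89).

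Against JTE, 7 of the 26 acinar secretory genes were called higher and 1 lower. These counts have to be read against the 2206 higher and 2735 lower of all 16245 genes tested in that contrast. The 5 described here were picked after their values were seen. Reg1, a secreted lectin of acinar cells, was at 21100, 14520 and 12250 in control, 1069, 1577 and 3050 in JTE and 15040, 7477 and 8559 in JTE + CTGF. It exceeded JTE in all 3 libraries (2.45 ± 0.31, adjusted p = 2.1e-05) and differed from control by −0.62 (adjusted p = 0.073). The difference from control passed the test without JTE + CTGF replicate 1 (−0.99, adjusted p = 0.0093) and without control replicate 3 (−0.78, adjusted p = 0.041). Rnase1, the pancreatic ribonuclease, showed the same order at 2397, 2315 and 1095, then 344, 386 and 321, then 1037, 1019 and 996. It exceeded JTE by 1.54 (adjusted p = 3.6e-05) and was still below control by 0.93 ± 0.19 (adjusted p = 0.00036). The elastase Cela2a and the trypsinogen Try4 were above JTE by 1.04 and 1.08 and did not pass the test against control (−0.21 and 0.12). Amy2b, a pancreatic amylase, was lower with CTGF than without, by 1.14 (adjusted p = 0.016). Of the acinar transcription factors, Ptf1a rose from 1163, 1068 and 825 to 2163, 2114 and 2505 (1.15 ± 0.18, adjusted p = 2.8e-05), with 40.4% of its exons under a transcript of the other strand. Nr5a2, a nuclear receptor of acinar cells, fell by 0.50 and Bhlha15 (Mist1) did not pass the test (0.34, adjusted p = 0.14), but did with the Y-linked share in the model (0.48, adjusted p = 0.040).

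**Figure D3:**
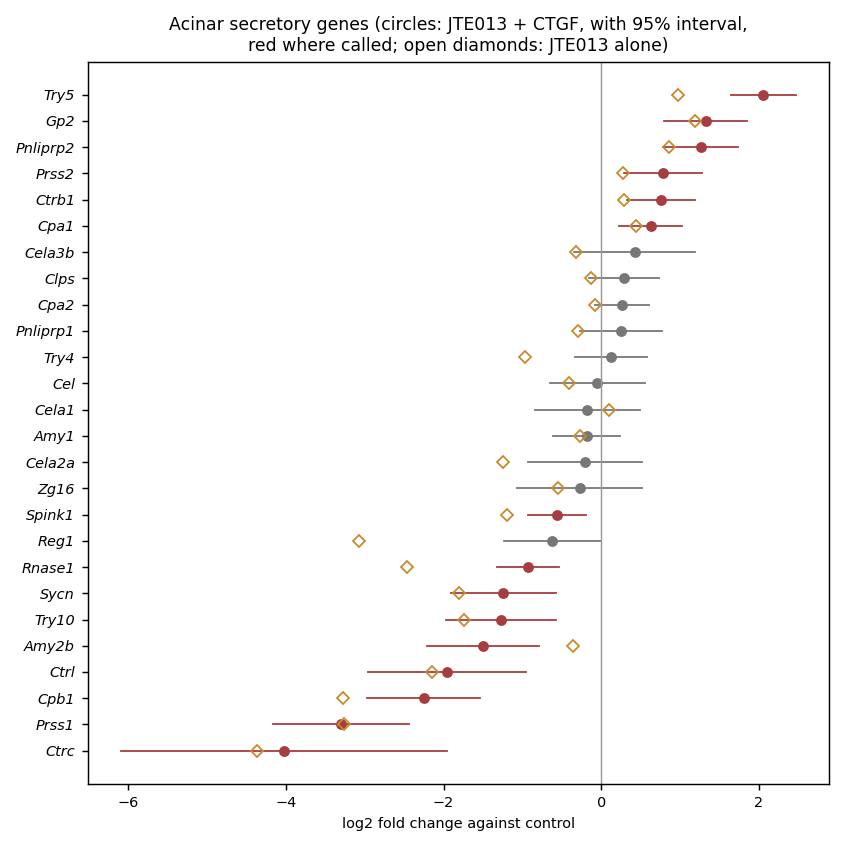
Log2 fold change against control (horizontal axis) of 26 acinar secretory genes in JTE + CTGF, as circles with 95% intervals (red where the adjusted p is below 0.05), and in JTE, as open diamonds. With CTGF 9 genes lie lower and 6 higher than control, and Reg1 lies at −0.62 where JTE is at −3.07.

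With Y-linked genes and Xist left out, most of the 12 largest falls were of enzymes, transporters and membrane proteins, and none was of a hormone. Clca3a2, a chloride channel regulator, fell from 622, 745 and 513 to 4.57, 4.58 and 7.11 (−6.83 ± 0.22). Gja5, a gap junction protein of arteries, fell from 190, 131 and 342 to 6.86, 4.58 and 7.11 (−5.13 ± 0.43). Wfdc18 was at 126, 100 and 88.5 in control and at 0 in all JTE + CTGF libraries, at least 35.0-fold lower against a floor of 3 normalised reads per library. Slc5a10, a sugar cotransporter, stood at 153, 260 and 82.3 in control and at 1.14, 2.29 and 0 in JTE + CTGF. Of the 12, Gm10800 (chr2:98666547-98667301), a gene model of unknown function, differed most between the treated groups. It was at 1161, 1157 and 457 in control, 470, 491 and 454 in JTE and 0 in all 3 JTE + CTGF libraries. This was at least 308-fold lower than control. Uncultured wild-type pancreata held 393, 732 and 481. Of its 50-base words 27.2% occur elsewhere, and whether the absence lay in the libraries or the mapping was not tested. The largest rises included the metallothionein Mt1, which binds zinc and copper, from 2040, 2377 and 2122 to 20240, 18310 and 22010 (3.21 ± 0.13, adjusted p = 8.7e-12). Steap1, of the STEAP family of membrane proteins, rose by 3.55 and Angptl6, a secreted angiopoietin-like protein, by 3.80. Rps3a1 rose by 4.60, from 42.5, 38.2 and 32.3 in control to 1182, 80.2 and 1488 in JTE + CTGF, with replicate 2 apart. It was at 55.0, 57.2 and 42.8 in JTE but at 2204, 2183 and 2243 in uncultured wild-type pancreata. The control and JTE levels were thus the ones far from fresh tissue, and 71% of its words occur elsewhere.

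Among non-epithelial cells the macrophage genes stood out by their count. All 15 were called lower (median −1.88, JTE −1.61), and their summed level was 187.3 to 270.9 CPM against 635.7 to 688 CPM in control, with 285.8 to 302.4 CPM in uncultured wild-type pancreata. Csf1r, the receptor macrophages need to survive, fell from 557, 786 and 634 to 41.2, 89.3 and 69.9 (−3.30 ± 0.17, adjusted p = 1.1e-10). Cx3cr1, the fractalkine receptor, fell from 391, 472 and 366 to 9.15, 9.16 and 4.74 (−5.71 ± 0.26) and was lower than its 42.3, 32.7 and 16.7 in JTE by 1.95 (adjusted p = 0.0015). All 3 groups were separate for this gene. Of 15 endothelial genes 8 were lower and 5 higher (median −0.34, JTE −0.31). Pecam1 fell by 0.44, Flt1, a VEGF receptor, by 1.70 and VE-cadherin (Cdh5) by 0.71, while Cldn5 (0.47) and Sox17 (0.74) rose. Without JTE + CTGF replicate 3 the count of higher genes was 3. Of 12 genes of neural crest and Schwann cells 5 were lower, among them Erbb3 (−0.89), the neuregulin receptor of Schwann cells, and S100b (−1.86), while Sox10, their defining factor, did not pass the test (−0.18, adjusted p = 0.33). Mesenchymal genes moved little as a group, with 6 of 20 lower and 3 higher (median −0.05). The fibrillar collagens Col1a1, Col1a2 and Col5a1 rose by 0.60, 0.43 and 0.58 on the log2 scale, and periostin (Postn) and Thy1 fell by 1.35 and 1.83. Contractile and SRF target genes fell more evenly, with 9 of 13 lower and none higher (median −1.09, JTE −1.09). Tagln, a smooth muscle actin-binding protein, fell from 847, 667 and 732 to 213, 205 and 206, with 67.9% of its exons under an annotated transcript of the other strand. The filamin Flna fell from 9881, 10940 and 11260 to 5389, 5131 and 4545. Flna was also lower than in JTE by 0.57, and its 9400 exonic bases place it in the longest bin of genes.

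Globin transcripts were higher in the JTE + CTGF libraries than in both other cultured groups. Hbb-bs was at 442, 988 and 501 against 48.8, 52.3 and 77.1 in control and 105, 65.3 and 117 in JTE (3.44 ± 0.31 against control, adjusted p = 7.6e-08, and 2.74 against JTE). Of 11 erythroid genes 6 were higher and 1, Epb42, lower (median 1.84, JTE 0.51, and 1.44 to 2.64 with single libraries left out). Their summed level was 108.7 to 180.4 CPM in JTE + CTGF, 19.2 to 43.6 CPM in control and 1308 to 1539 CPM in uncultured wild-type pancreata. All 3 JTE + CTGF libraries thus held more reads of these genes than any control library and far fewer than fresh tissue. The globins share between 53.2% and 72.3% of their words with sister genes. The part of residual blood in the other results was not tested.

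**Figure D4:**
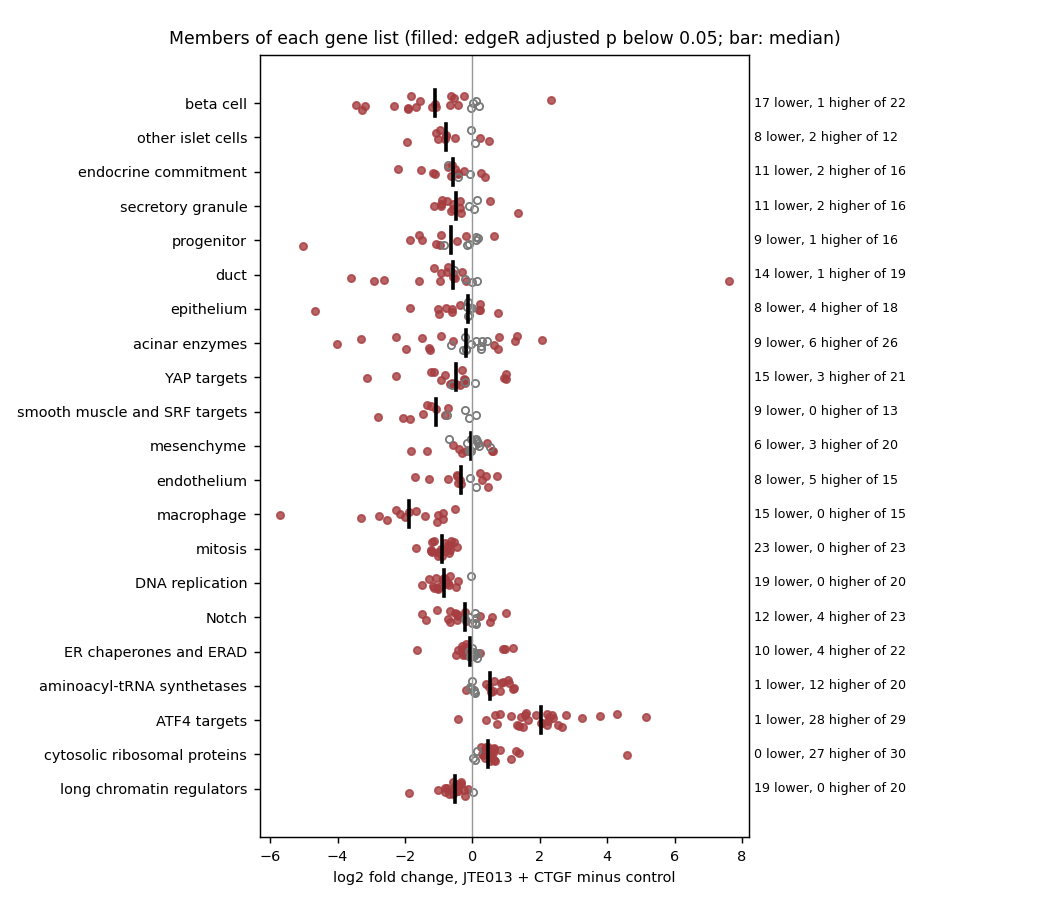
Log2 fold change of JTE + CTGF minus control (horizontal axis) for each tested member of 21 gene lists (rows), filled where the adjusted p is below 0.05, with bars at the medians and the counts at the right. All 15 macrophage and 23 mitosis genes lie below 0, 28 of 29 genes of the ATF4 list lie above 0, and the acinar enzymes spread to both sides.

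Genes of cell division were lower throughout. All 23 mitosis genes were called lower (median −0.89, JTE −0.66), as were 19 of 20 DNA replication genes (median −0.84, JTE −0.69). Mki67, which is made in cycling cells, fell from 2667, 3024 and 2928 to 854, 984 and 844 (−1.68 ± 0.07, adjusted p = 7.5e-12). JTE stood between the 2 at 1506, 1552 and 1539, with no overlap among the 3 groups, and JTE + CTGF was lower than JTE by 0.78 (adjusted p = 5.7e-07). The spindle checkpoint kinase Bub1b fell by 1.22 and the kinetochore protein Cenpf by 1.21. Of the replication genes, the helicase subunit Mcm5 fell from 1992, 1836 and 2135 to 728, 917 and 785, and the polymerase subunit Pola1 fell by 0.86. Each of Bub1b, Cenpf, Mcm5 and Pola1 was also lower than in JTE, by 0.35 to 0.62 on the log2 scale. Mki67, Cenpf and Pola1, with 10075, 11353 and 8813 exonic bases, are in the longest bin of genes, whose median against JTE was −0.24. Bub1b (4275) and Mcm5 (3422) are shorter. Other replication genes, such as Lig1, Pcna, Tyms and Tk1, did not pass the test against JTE. Among 28 genes of cell death and survival, 8 were higher and 12 lower (median −0.03). Casp12 fell from 161, 142 and 173 to 14.9, 16.0 and 16.6, and the BH3-only gene Hrk rose from 64.8, 64.3 and 73.9 to 184, 165 and 208. Of 15 genes of the p53 response, Trp53 among them, 7 were lower and 1 higher (7 and 3 without the length trend), and Trp53 fell by 0.62.

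Genes of the amino acid response were higher. Of 29 genes of the response of ATF4, a transcription factor translated when the integrated stress response is active, Atf4 itself included, 28 were called higher and 1 lower (median 2.03, JTE 1.79). Trib3, a pseudokinase that feeds back on ATF4, rose from 123, 144 and 101 to 5019, 3655 and 4309 (5.14 ± 0.15, adjusted p = 2.5e-13). Ddit3 (CHOP), a stress-induced transcription factor, rose from 221, 251 and 241 to 3685, 2774 and 3351 (3.78 ± 0.14, adjusted p = 5e-12). In JTE they were at 3346, 3395 and 4213 and at 2326, 2275 and 3324. For both genes the 2 treated groups overlapped each other and lay far above control. Atf5 rose by 2.79, the folate enzyme Mthfd2 by 2.07 and the amino acid transporter subunit Slc3a2 by 2.03. The cationic amino acid transporter Slc7a3 rose from 93.4, 124 and 64.6 to 1018, 770 and 907 (3.25 ± 0.14). The lower member was Ddit4, an inhibitor of mTORC1 (−0.41), whose call was lost without JTE + CTGF replicate 1. TGATGCA, the core of the element that ATF4 binds with C/EBP partners, was searched on both strands in the 250 bases before the start. It was found in 7 of the 25 genes of this list with a window (28%), against 3.1% of 27025 genes and 2.02% of 11656 genes tested. It was also found in 2 of 9 Nrf2 targets (22.2%) and 2 of 13 aminoacyl-tRNA synthetases (15.4%). The Nrf2 matches were in Me1 and in Slc7a11, and Slc7a11 is also a match of the ATF4 list. The 4 windows below, from RefSeq for GRCm38.p6 and written 5′ to 3′ on the gene's strand, show the matches in capitals, as TGATGCA or as its reverse complement TGCATCA.

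Chac1 (chr2:119350992-119351241, plus strand): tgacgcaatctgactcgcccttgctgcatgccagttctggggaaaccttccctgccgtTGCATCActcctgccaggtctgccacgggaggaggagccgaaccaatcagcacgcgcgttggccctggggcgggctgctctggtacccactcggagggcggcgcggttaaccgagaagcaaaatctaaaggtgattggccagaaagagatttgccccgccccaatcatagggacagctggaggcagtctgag
Slc7a11 (chr3:50443614-50443863, minus strand): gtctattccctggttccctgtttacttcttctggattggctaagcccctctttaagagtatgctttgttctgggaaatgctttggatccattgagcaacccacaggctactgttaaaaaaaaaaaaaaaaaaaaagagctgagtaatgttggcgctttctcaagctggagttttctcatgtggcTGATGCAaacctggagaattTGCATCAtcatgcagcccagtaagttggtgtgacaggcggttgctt
Atf3 (chr1:191183334-191183583, minus strand): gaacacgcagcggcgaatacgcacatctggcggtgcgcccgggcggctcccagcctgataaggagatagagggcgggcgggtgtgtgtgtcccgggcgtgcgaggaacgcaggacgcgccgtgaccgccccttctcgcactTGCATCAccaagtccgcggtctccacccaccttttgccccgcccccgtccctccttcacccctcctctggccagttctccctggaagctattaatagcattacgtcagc
Nupr1 (chr7:126625471-126625720, minus strand): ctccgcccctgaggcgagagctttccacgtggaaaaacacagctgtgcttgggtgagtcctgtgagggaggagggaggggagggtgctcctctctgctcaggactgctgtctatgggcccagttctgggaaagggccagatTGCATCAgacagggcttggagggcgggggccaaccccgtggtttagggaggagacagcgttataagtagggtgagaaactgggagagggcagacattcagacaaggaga

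The match lies 186 bases upstream of the start in Chac1, 60 and 40 in Slc7a11, which holds 1 on each strand, and 103 in Atf3 and in Nupr1. Chac1, which degrades glutathione, rose by 2.53 on the log2 scale. Slc7a11, the cystine importer, rose from 75.4, 93.5 and 56.2 to 367, 388 and 344 and was below the 484, 502 and 469 of JTE (−0.40, adjusted p = 0.024). Atf3, a stress-induced repressor, rose by 1.32 and Nupr1, a small chromatin protein of pancreatic stress, by 2.20. The matches describe the letters in these windows and were not tested as sites.

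Other parts of protein synthesis and folding moved unevenly. Of 20 cytosolic aminoacyl-tRNA synthetases, which charge tRNAs and include ATF4 targets, 12 were higher and 1 lower (median 0.53, JTE 0.43), led by Yars (1.24) and Sars (1.19). Of 22 chaperone and degradation genes of the endoplasmic reticulum (ER), 10 were lower and 4 higher (median −0.07, JTE −0.20). Sel1l, the scaffold of an ER ubiquitin ligase, rose from 5168, 5761 and 3770 to 10050, 9214 and 9589 (0.97 ± 0.13, adjusted p = 9.2e-06). Herpud1 (1.20) and Derl1 (0.90), of the same degradation route, also rose, and Derl3 fell by 1.64. Of 30 cytosolic ribosomal protein genes 27 were higher (median 0.47, JTE 0.23). Rps24 rose from 1963, 1869 and 1826 to 4378, 4523 and 5015, above the 2369, 2271 and 3039 of JTE by 0.86 (adjusted p = 1.9e-06). The short ribosomal genes and the long chromatin regulators moved in opposite directions, as the length trend does. Of 20 long chromatin regulators 19 were lower (median −0.52, JTE 0.09), and without the length trend 15 were lower and 2 higher. Bptf, a subunit of a nucleosome remodeller with 13907 exonic bases, was at 1235, 1105 and 1067 against 2063, 2043 and 1904 in control and 1860, 1934 and 2120 in JTE. With the length trend removed 27 ribosomal genes were still called higher.

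Metabolic and matrix lists divided as follows. Of 20 glycolysis and hypoxia genes 7 were higher and 8 lower, with Pkm (−1.23), the last enzyme of glycolysis, and Car9 (−2.98), a hypoxia-induced carbonic anhydrase, lower and hexokinase 1 (Hk1, 1.14) and Vegfa (0.84) higher. Of 20 cholesterol synthesis genes 17 were lower, such as Nsdhl (−1.24), but 10 were called lower without JTE + CTGF replicate 1 and 13 with the Y-linked share in the model. Of 22 collagen genes 10 were lower and 4 higher, which became 8 and 9 without the length trend. Col2a1 fell by 2.44 and Col12a1 by 2.28. Of 23 matrix, integrin and laminin genes 14 were lower and 3 higher (12 and 6 without the length trend), with tenascin (Tnc, −1.57) and thrombospondin (Thbs1, −0.99) lower and the integrins Itgb3 (1.13) and Itgb5 (0.95) higher. Of 14 Nrf2 targets 6 were higher and 5 lower, with heme oxygenase (Hmox1, 1.04) and Gclm (0.55) among the higher. Of 14 immediate early genes 8 were lower and 3 higher, with Egr3 at −2.41 and Jund at 0.59. A transcript of the other strand covers 52.6% of the Jund exons. Of 16 genes of the TGF-beta and BMP response 6 were lower and 2 higher, with Tgfbi at −1.01 and Bambi at 0.82. The count of higher genes was 4 without JTE + CTGF replicate 1 and 1 without replicate 2. Of 10 mitochondrially encoded genes 6 were higher, among them mt-Nd1 (0.31) and mt-Co1 (0.72). In 3 of the 6, mt-Co2, mt-Co3 and mt-Atp6, the group means were at most 43.9 normalised counts. Of the 50-base words of mt-Co1, mt-Co2 and mt-Co3, 51.1%, 100% and 99.9% occur at other loci.

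The direct contrast of JTE + CTGF with JTE leaves the control libraries out of the difference. Of the 16245 genes tested it called 2206 higher and 2735 lower. Among the endocrine, progenitor and duct genes described above, those higher with CTGF included Ins1, Scg2, Epcam and Hes1, and those lower included Pdx1, Sox4, St18, Nnat, Ehf and Onecut1. The 4 higher genes have 1016 to 2485 exonic bases. The lower ones have 3807 to 6494, apart from Nnat with 1829. The median of this contrast ran from 0.15 in the shortest bin of genes to −0.24 in the longest. The part of length in these differences was not tested. Nkx6-2, Dll1, Ppy, Gcg, Aqp1, Krt19, Krt8, Ccn2, Csf1r, Trib3 and Ddit3 did not pass the test in either direction, with the 95% intervals shown. Of these, Krt19 had the narrowest, from −0.21 to 0.06, and Nkx6-2 the widest, from −0.75 to 1.15. A miss of the threshold does not show that the levels were equal.

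**Figure D5:**
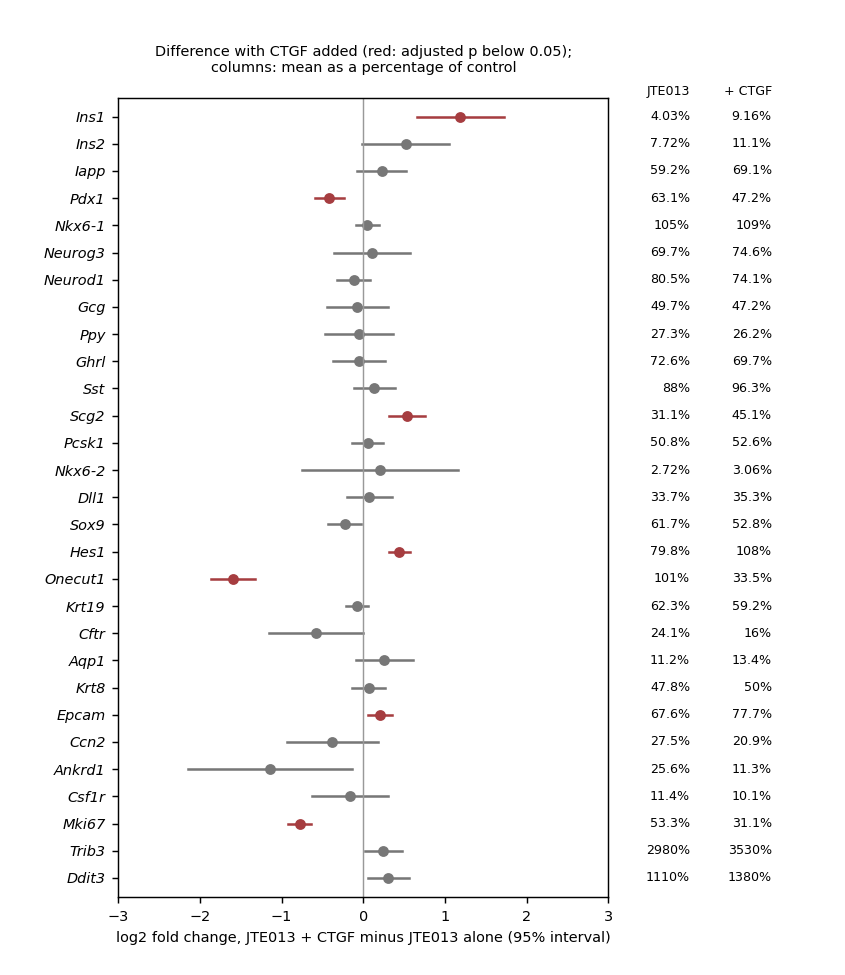
Log2 fold change of JTE + CTGF minus JTE (horizontal axis) with 95% intervals for 29 genes, red where the adjusted p is below 0.05, and columns with the mean of each treated group as a percentage of control. Ins1 is at 1.19 and Onecut1 at −1.59, and Ins1 stands at 4.03% of control in JTE and 9.16% in JTE + CTGF.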

How the data were processed

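Poly(A) RNA of mouse pancreatic explants was sequenced from strand-specific libraries. Single-end reads were mapped by the authors with GSNAP on mm10 and Ensembl splice sites. They deposited raw counts of uniquely aligned reads per gene, made with featureCounts 1.4.6. The submitters' processing notes also name bcl2fastq 1.8.4 and DESeq2 1.6.2. Whether counting used the strand is not given in the sources used here. The exonic length per gene came from the same table. Symbols were taken from GENCODE M21 of that build for 24750 of 25292 IDs (97.9%), and 542 had none.

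Differences were tested in edgeR 4.0.16 (R 4.3.3) by its quasi-likelihood F-test, with TMM factors, filterByExpr, 1 coefficient for each of the 5 groups, all 15 libraries and no covariate. Benjamini-Hochberg adjustment ran over all 16245 genes that passed the filter. Intervals have 95% confidence. A gene at 0 in all libraries of a group was given a bound against a floor of 3 normalised reads per library, which covers counting error only. The test was checked on simulated counts, with far fewer genes changed than were called here. They held none of the length, Y-linked or globin differences between the groups, so the check cannot cover these. Shares of 50-base words found at other loci were computed from the reference transcripts.

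The gene lists and members were chosen with earlier results of these data known. Named genes were the 12 largest falls and 12 largest rises among regulated genes whose groups do not overlap, leaving out Y-linked genes and Xist. Also named were up to 4 members of each list with the smallest adjusted p and up to 4 against their list's direction. A set of genes was named in any case. Some further members, such as Mafa, Slc30a8, Slc2a2, Abcc8, Kcnj11, Pax4, Cdh1, Reg1, Rnase1, Cela2a, Try4, Amy2b, Prss2, Chac1 and Nupr1, were added after their values were seen. DESeq2 1.42.0, DESeq2 size factors, no filter, fewer libraries, a replicate block, a length correction, a Y-linked covariate and leaving out each library were alternatives. A few named-gene results are not reported here.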

Additional observations from a re-analysis of the deposited data

How the results depend on the processing

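The counts of called and regulated genes over all genes tested stayed within 1.5 times their values under all 14 alternatives, while counts in some gene lists moved further, such as cholesterol synthesis (17 lower, 10 without JTE + CTGF replicate 1) and epithelium (4 higher, 1 without control replicate 3 or JTE + CTGF replicate 3). With single libraries left out there were 705 to 796 regulated genes higher and 1174 to 1274 lower, and 4187 to 4369 called higher and 4860 to 5086 lower. The other alternatives gave 694 to 853, 1074 to 1218, 4198 to 5055 and 4658 to 5429. The replicate block gave 713 and 1194 regulated and 4522 and 5294 called genes. Replicate numbers are shared by the titles only, and same-numbered control and JTE + CTGF libraries did not deviate together (correlations −0.17, −0.11 and −0.19). Of 2338 values of 167 genes under an alternative, 2295 kept their direction and side of the threshold, 15 lost a call, 16 gained one and 12 changed sign, in 19 genes in all; of the causes none was tested.

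The changes of sign were in genes not called in the comparison. Cel was at 0.086 with the Y-linked share in the model and ranged from −0.234 to 0.052 with single libraries left out. Kcnj11 was at −0.080 without the length trend and ranged from −0.104 to 0.131, Lpar1 ranged from −0.271 to 0.0034 and Try4 from −0.092 to 0.265. Sst was at 0.192 with the Y-linked share, and Yap1 at 0.175 without the length trend. The number of libraries limits what small differences can show, and counting error limits genes with few reads, such as Ucn3. The groups differ in Y-linked share, globin reads, Gm10800 reads and length trend, which cannot be told apart from the treatment.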

Other observations

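Interferon-stimulated genes, a list of 30 assembled after values of these genes were seen and given without a test of the list, were lower in JTE + CTGF than in control, with 27 called lower by edgeR and a median of −2.46 (−2.396 in JTE). None was called against JTE. Control replicate 1 stood apart. The summed level of the list was 1638, 485.4 and 611.8 CPM in control, 381.2, 397.1 and 343.2 CPM in JTE + CTGF and 318.8 to 342.1 CPM in uncultured wild-type pancreata. Isg15, a ubiquitin-like protein induced by interferon, was at 1224, 107.6 and 186.4 in control and at 57.2, 73.3 and 33.2 in JTE + CTGF. Without control replicate 1, 23 genes were called lower and the median was −1.11.

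Vil1, which encodes the brush border protein villin, was at 358, 337 and 307 in control, 54.0, 75.6 and 43.7 in JTE and 48.0, 46.9 and 35.5 in JTE + CTGF (−2.93 ± 0.16 against control, edgeR adjusted p = 3.3e-10).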
